A study of Rattus norvegicus with 4 samples.

Results

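Glucose sensing and stimulus-secretion coupling in β-cells were followed through 8 genes chosen by name: the glucose transporter Slc2a2, the ATP-sensitive potassium (KATP) channel subunits Abcc8 and Kcnj11, the L-type calcium channel pores Cacna1c and Cacna1d, the islet glucose-6-phosphatase G6pc2, the fatty acid receptor Ffar1 and the transcription factor Hnf4a. Of these 8 genes, 7 were measured among the 15172 genes of the table and all 7 passed the filter on low counts, while G6pc2 was not analysed here. The cells were INS-1 832/13, a rat insulinoma line, so 1 tumor-derived line stands for the β-cell, and they were transfected for 36 h with a non-targeting siRNA (siScramble, control, 2 samples) or with a pool of siRNAs against Tbk1 (siTbk1, 2 samples). Each group holds a replicate 2 and a replicate 3. The labels do not say whether they were separate cultures, so the p-values measure only the spread between these samples, which may be technical. The comparison asks which parts of the route from glucose entry to calcium entry changed in mRNA level when Tbk1 was depleted.

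In the β-cell, glucose enters through a low-affinity transporter, its metabolism raises the ratio of ATP to ADP, and KATP channels close. The membrane then depolarizes, voltage-gated calcium channels open, and the calcium that enters triggers the exocytosis of insulin granules. Fatty acids acting on Ffar1, a receptor coupled to the G protein Gq, add to this response, and HNF transcription factors maintain the expression of genes along the route.

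Levels are given as CPM (counts per 1000000 counts of the scaled library). The total estimated count lay between 38428926 and 47759013 per sample, so that 3 counts correspond to at most 0.0781 per 1000000 counts before scaling. This limit covers counting error only. The intervals given below use the standard error of the edgeR fit, which also includes the spread between samples. Tbk1 fell in siTbk1-treated cells from 53.1 ± 0.876 to 12.6 ± 1.05 CPM (SD, n = 2 each). All 10 β-cell marker genes were measured (among them the insulin genes Ins1 and Ins2), and their summed level was 17620 and 18610 CPM in control and 15270 and 13650 CPM in siTbk1-treated samples. Ins1 alone went from 10383 and 11092 to 7520 and 6244 CPM, and of the 10 markers 3 rose (Iapp, Nkx6-1 and Slc30a8), 3 fell (Ins1, Ins2 and Pdx1) and 4 did not pass, with a median log2 fold change of 0.028. Those other than Ins1 and Ins2 are named after their values were seen. Of 17 markers of other cell types, 4 were measured. Gcg, the glucagon gene of α-cells, was at 1389 and 1313 CPM in control and 815 and 878 CPM in siTbk1-treated samples, and the other 3 (Hhex, Sox9 and Cd68) did not exceed 0.397 CPM in any sample. The part of these shifts in the results below was not tested, and in bulk RNA fewer cells of a type and less RNA per cell cannot be told apart.

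Slc2a2 and Cacna1c fell in siTbk1-treated cells, and Abcc8, Kcnj11, Cacna1d, Ffar1 and Hnf4a did not pass the test. Here "rose" and "fell" stand for an adjusted p under 0.05 over all 13953 genes tested, and a gene was called higher or lower when its fold change was also at least 1.5. The adjusted p-values come from quasi-likelihood tests in edgeR and were adjusted after Benjamini and Hochberg. Falling genes made up 2 of the 7, against 24.8% of all tested genes, and none of the 7 rose, against 24.4% of all tested genes. None of the 7 was called, against 4.81% of all genes called higher and 6.18% called lower. The 2 groups of samples did not overlap for 3 of the 7 genes (Slc2a2, Cacna1c and Ffar1), against 76.6% of all tested genes. The median log2 fold change of the 7 genes was −0.094, beside 0.0071 over all tested genes. The share that fell was thus near the background, and the account below is of the individual genes.

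**Figure D1:**
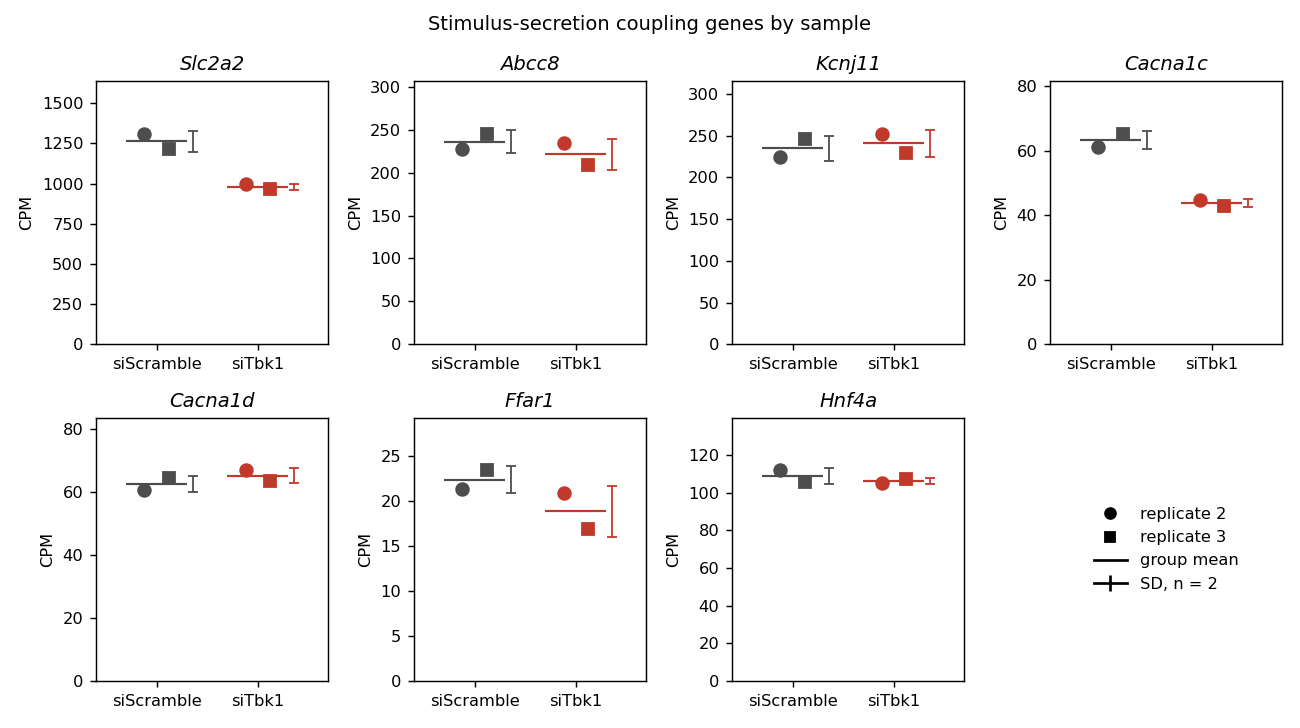
Expression of the 7 measured coupling genes in CPM (vertical axis of each panel, from 0) in the 2 siScramble and 2 siTbk1 samples; symbols are the replicates, horizontal lines group means and bars the SD (n = 2). Slc2a2 and Cacna1c are the genes whose siTbk1 samples lie clearly below both control samples, at 994 and 967 CPM and at 44.8 and 43.0 CPM.

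The promoter windows of 3 genes are shown first, because Slc2a2 and Cacna1c are the members that fell and Cacna1d is the paralog of Cacna1c that did not pass the test. The sequences are from RefSeq on the GRCr8 build, run from 250 bases before to 50 bases after the annotated start, and are written 5′ to 3′ on the strand of the gene. The Slc2a2 window is chr2:113540120-113540419 (+ strand), the Cacna1c window chr4:154051699-154051998 (− strand) and the Cacna1d window chr16:5527500-5527799 (− strand). Capitals mark matches on either strand to 6 short motifs, which were searched for as the TATA box TATAAA (present in 14.2% of all 33469 promoter windows of this length), the homeodomain core GTTAAT (7.45%), the nuclear receptor core CAAAGT (14.8%), the MAF core TGCTGAC (4.44%), the cAMP response element core TGACG (21.2%) and the GC box GGGCGG (33.1%).
Slc2a2: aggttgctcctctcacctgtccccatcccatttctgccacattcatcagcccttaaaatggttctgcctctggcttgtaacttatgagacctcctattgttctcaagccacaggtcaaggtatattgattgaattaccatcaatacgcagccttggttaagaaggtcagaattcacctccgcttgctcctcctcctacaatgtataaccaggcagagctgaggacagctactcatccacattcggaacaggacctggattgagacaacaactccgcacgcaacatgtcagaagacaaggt
Cacna1c: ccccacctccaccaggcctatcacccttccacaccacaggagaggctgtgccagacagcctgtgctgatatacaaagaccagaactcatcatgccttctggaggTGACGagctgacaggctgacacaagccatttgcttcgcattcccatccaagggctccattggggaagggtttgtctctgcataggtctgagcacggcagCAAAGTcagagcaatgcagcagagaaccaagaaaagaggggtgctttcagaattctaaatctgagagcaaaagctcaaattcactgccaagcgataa
Cacna1d: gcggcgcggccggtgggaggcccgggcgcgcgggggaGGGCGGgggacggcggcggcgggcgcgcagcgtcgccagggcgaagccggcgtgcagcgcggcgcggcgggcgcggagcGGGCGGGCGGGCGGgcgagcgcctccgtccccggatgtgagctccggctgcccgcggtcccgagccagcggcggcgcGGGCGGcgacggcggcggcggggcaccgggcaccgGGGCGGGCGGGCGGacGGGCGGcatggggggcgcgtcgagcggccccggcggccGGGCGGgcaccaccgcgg

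The windows of the paralogs Cacna1c and Cacna1d differed in base composition. The Cacna1d window was 88.7% G and C with 66 CpG dinucleotides and 10 matches to the GC box, some of which overlap. The Cacna1c window was 51.7% G and C with 4 CpG dinucleotides, 1 match to the nuclear receptor core and 1 to the cAMP response element core. The Slc2a2 window was 47.7% G and C with 5 CpG dinucleotides and held none of the 6 motifs. The median over all windows was 51.7% G and C and 7 CpG dinucleotides. A match is a description of the letters and not of a binding site, and which start sites the INS-1 832/13 cells use was not measured. Of the 8 genes, 6 had a RefSeq window. Hnf4a has 2, of which the downstream one (chr3:172641586-172641885, + strand) held 2 matches to the homeodomain core, and Abcc8 and Kcnj11 are named only.

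Slc2a2, which encodes the facilitative transporter GLUT2 that carries glucose into rodent β-cells, is listed on chromosome 2 from 114413410 to 114445396 on the + strand. Its level was 1310 and 1218 CPM in siScramble replicates 2 and 3 and 994 and 967 CPM in siTbk1 replicates 2 and 3. Both siTbk1 samples lay below both control samples. In edgeR, Slc2a2 had a log2 fold change of −0.37 ± 0.055 (standard error) and an adjusted p of 0.00020, a change of −22.4% with a 95% interval from −28.6% to −15.7%. This interval does not reach the 1.5-fold limit. The 2 same-numbered pairs gave log2 ratios of −0.40 and −0.33. The decrease passed the test in all 9 alternative fits that tested against no change, with log2 fold changes between −0.41 and −0.36. It did not pass the test against a fold change of 1.5 (glmTreat). With each sample left out in turn, the log2 fold change of Slc2a2 lay between −0.42 and −0.31. Of all tested genes, 17.8% had a lower log2 fold change, so many genes fell by more.

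The ratio of the estimated counts of Slc2a2 to those of Slc2a1, which encodes the widely expressed transporter GLUT1, does not depend on the scaling of the libraries. It was 49.4 and 44.9 in the control and 35.9 and 37.7 in the siTbk1 samples, so the groups did not overlap, and the mean log2 ratio differed by −0.36. The spread between replicates of this log2 ratio was at most 0.0974 (SD, n = 2). Slc2a1 itself went from 26.8 ± 0.415 to 26.7 ± 1.45 CPM (SD, n = 2 each); its log2 fold change of −0.0058 did not pass the test. With 2 samples against 2, the exact permutation test (two-sided) cannot go below p = 0.333, which is the value it gave for each of the 4 ratios examined (adjusted p = 0.333 over the 4). Of the 11 other genes listed for glucose entry and phosphorylation, 7 were tested: 1 rose, 2 fell and 4 did not pass. The hexokinase genes Hk1, Hk2, Hk3 and Hkdc1 were listed but not analysed here. Slc2a3, the transporter GLUT3 of neurons, was called higher from a low level, 2.51 ± 0.272 to 4.93 ± 0.482 CPM (SD, n = 2 each, log2 fold change 0.96), and its counts include split reads.

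G6pc2 acts opposite to glucose phosphorylation in islets. Of the other genes of that step, 4 were tested, of which 1 fell and 3 did not pass. The gene that fell was G6pc3, the broadly expressed paralog of G6pc2, which went from 36.5 ± 0.515 to 28.4 ± 1.31 CPM (SD, n = 2 each, log2 fold change −0.36, edgeR adjusted p = 0.00089). It is named here after its value was seen. Slc37a4, the carrier that takes glucose 6-phosphate into the endoplasmic reticulum, is named because its mean CPM, which is not divided by length, was the highest of the 4, and it went from 71.9 ± 1.03 to 66.95 ± 1.69 CPM (SD, n = 2 each, log2 fold change −0.10, edgeR adjusted p = 0.156).

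Abcc8 encodes SUR1, the sulfonylurea receptor that regulates the KATP channel, and Kcnj11 encodes Kir6.2, the pore of the same channel. The genes are neighbors on chromosome 1, Kcnj11 from 102103094 to 102106128 and Abcc8 from 102110708 to 102191288, both on the − strand with 4.58 kb and no other listed gene between them. Abcc8 was at 227 and 245 CPM in the control samples and at 234 and 208 CPM in the siTbk1 samples. The groups overlapped, and edgeR gave a log2 fold change of −0.094 ± 0.064 (standard error) at an adjusted p of 0.25, with a 95% interval of −15.0% to 3.27%. Kcnj11 was at 224 and 246 CPM in the control samples and at 252 and 229 CPM in the siTbk1 samples. These groups overlapped as well, and edgeR gave a log2 fold change of 0.038 ± 0.063 (standard error) at an adjusted p of 0.648, with an interval of −6.63% to 12.9%. A change of 1.5-fold in either direction lies outside both intervals.

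The same-numbered pairs of the KATP genes went in opposite directions for both genes. For Abcc8 the pairs 2 and 3 gave log2 ratios of 0.044 and −0.24, and for Kcnj11 of 0.17 and −0.098. Without siTbk1 replicate 2, Abcc8 passed the test at −0.19 (edgeR adjusted p = 0.0357, with the lone siTbk1 sample assumed to vary like the control samples), and so it did after a correction for genomic span (−0.20, edgeR adjusted p = 0.030). The sign of Kcnj11 was negative with library size alone (−0.0098), without siScramble replicate 2 (−0.026) and without siTbk1 replicate 2 (−0.045), and it did not pass the test in any of these. The ratio of Abcc8 to Kcnj11 counts within a library was 1.01 and 1.00 in the control samples and 0.927 and 0.908 in the siTbk1 samples, so the groups did not overlap, with a mean log2 difference of −0.13 and an SD of at most 0.021 (n = 2, exact permutation p = 0.333, adjusted p = 0.333 over the 4 ratios). The counts of Abcc8 include split reads, as do those of Slc2a2, Cacna1d and Hnf4a, and those of Kcnj11 do not. Of the other KATP subunits, Abcc9 was at or below 0.227 CPM in every sample and did not pass the filter.

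**Figure D2:**
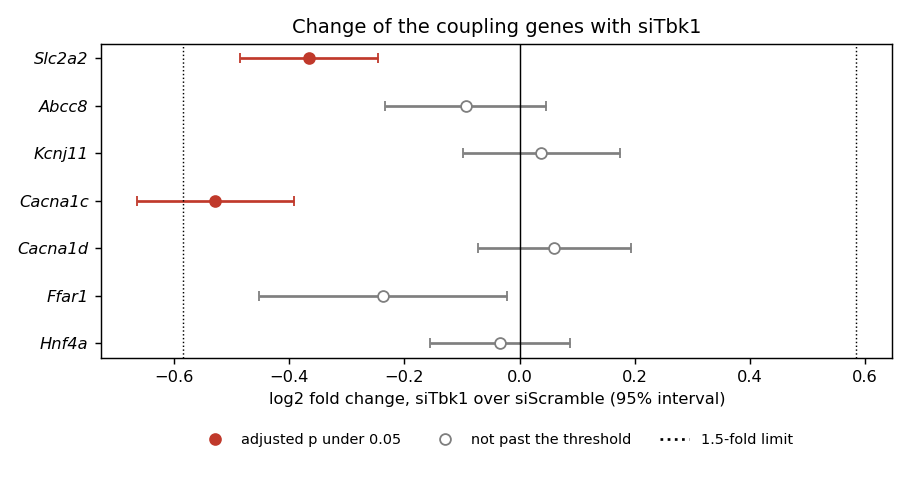
Log2 fold change of the 7 measured coupling genes in siTbk1-treated over control cells (horizontal axis) with 95% intervals from edgeR's quasi-likelihood fit; filled points passed the test and dotted lines mark the 1.5-fold limit. Slc2a2 (−0.37) and Cacna1c (−0.53) are filled, the interval of Cacna1c reaches the limit, and the other 5 genes did not pass.

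Cacna1c and Cacna1d encode Cav1.2 and Cav1.3, the L-type calcium channel pores that open when the β-cell depolarizes. Cacna1c is listed on chromosome 4 from 150641066 to 150829914 and Cacna1d on chromosome 16 from 6112150 to 6405118, both on the − strand, with genomic spans of 189 and 293 kb. Cacna1c was at 61.3 and 65.3 CPM in the control samples and at 44.8 and 43.0 CPM in the siTbk1 samples. Both siTbk1 samples lay below both control samples. The edgeR fit gave a log2 fold change of −0.53 ± 0.062 (standard error) at an adjusted p of 4.4e-05, a change of −30.7% with a 95% interval from −36.9% to −23.8%. The decrease was just short of the 1.5-fold limit, which is 0.585 on the log2 scale. It was past the limit after the correction for genomic span (−0.65), which makes Cacna1c a called gene there. The decrease passed the test in all 9 alternative fits that tested against no change, and not the test against a fold change of 1.5 (glmTreat). With each sample left out in turn, the log2 fold change of Cacna1c lay between −0.57 and −0.48.

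Cacna1d, in contrast, was at 60.8 and 64.5 CPM in the control samples and at 66.9 and 63.6 CPM in the siTbk1 samples. The groups overlapped, and edgeR gave a log2 fold change of 0.060 ± 0.061 (standard error) at an adjusted p of 0.439, with a 95% interval of −4.89% to 14.3%. Its sign turned negative after the correction for genomic span (−0.065), still without passing the test. The counts of Cacna1d and Cacna1c were nearly equal in control cells, with ratios of 0.992 and 0.988. In siTbk1-treated cells the ratios were 1.49 and 1.48. The groups did not overlap, the mean log2 ratio differed by 0.59, and the SD between replicates was at most 0.0087 (n = 2, exact permutation p = 0.333, adjusted p = 0.333 over the 4 ratios). These counts are not divided by transcript length, so the ratio tells how the 2 genes changed relative to each other and not which is the more abundant mRNA.

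**Figure D3:**
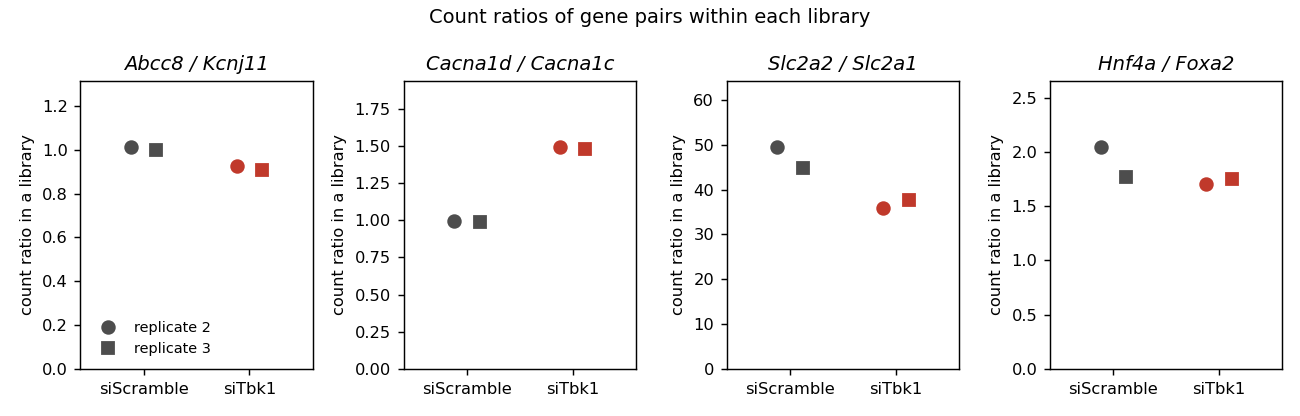
Ratio of the estimated counts of 4 gene pairs within each library (vertical axes, from 0) by group; symbols are the replicates 2 and 3. The ratio of Cacna1d to Cacna1c is 0.992 and 0.988 in the control samples and 1.49 and 1.48 in the siTbk1 samples, while for Hnf4a to Foxa2 the control samples, at 2.04 and 1.77, spread more widely than the siTbk1 samples, at 1.7 and 1.75.

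Among the other calcium channel pores, 6 were tested, of which 1 rose, 1 fell and 4 did not pass, with a median log2 fold change of −0.13. Cacna1h, the T-type channel Cav3.2, was called lower. It was at 102 and 113 CPM in the control samples and at 72.3 and 64.5 CPM in the siTbk1 samples (log2 fold change −0.65, standard error 0.071, edgeR adjusted p = 2.8e-05). Without siScramble replicate 3, or without siTbk1 replicate 3, its log2 fold change was −0.57 and just under the limit. Cacna1s, the L-type pore of skeletal muscle, was called higher from a low level, 3.56 ± 0.178 to 6.895 ± 1.43 CPM (SD, n = 2 each, log2 fold change 0.96). Cacna1a, the P/Q-type pore, is named after its values were seen and went from 146 ± 5.39 to 134 ± 3.66 CPM (SD, n = 2 each, log2 fold change −0.12, edgeR adjusted p = 0.0785).

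Auxiliary subunits bring the pores to the membrane and set their gating. Of the 9 listed, 8 were tested, of which 1 rose, 2 fell and 5 did not pass, with a median log2 fold change of −0.11. Cacnb1, a β subunit, was called lower, from 18.5 and 19.3 CPM in the control samples to 11.8 and 12.3 CPM in the siTbk1 samples (log2 fold change −0.65, edgeR adjusted p = 7.1e-05). The other genes past the test are named after their values were seen. Cacnb3, another β subunit, fell from 463 ± 26.7 to 355 ± 18.3 CPM (SD, n = 2 each, log2 fold change −0.38). Cacna2d1, an α2δ subunit, rose from 140 ± 4.23 to 209 ± 10.7 CPM (SD, n = 2 each, log2 fold change 0.58), and its counts include split reads. The calcium channel genes thus moved in both directions.

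**Figure D4:**
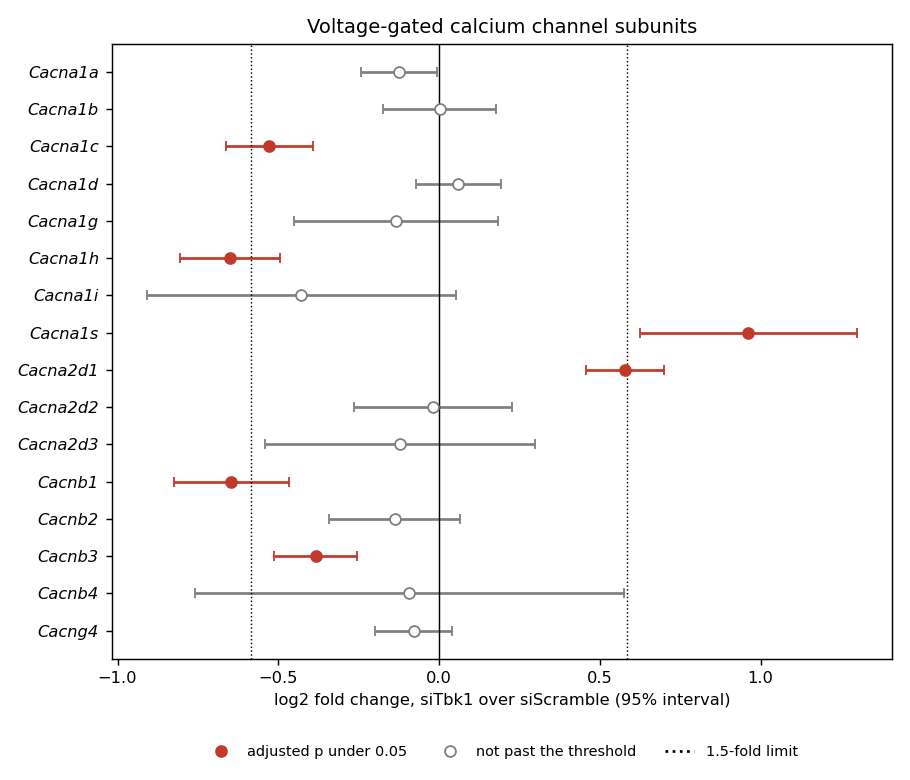
Log2 fold change (horizontal axis, with 95% intervals) of all tested voltage-gated calcium channel subunits in siTbk1-treated over control cells; filled points passed the test and dotted lines mark the 1.5-fold limit. Cacna1c (−0.53), Cacna1h (−0.65), Cacnb1 (−0.65) and Cacnb3 (−0.38) lie below 0, and Cacna1s (0.96) and Cacna2d1 (0.58) lie above it.

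Other conductances shape the return of the membrane potential after calcium entry. Of 22 tested potassium channel genes of repolarization, 8 rose, 5 fell and 9 did not pass, with a median log2 fold change of 0.025. Among the called genes, Kcnn3 (log2 fold change 0.85), Kcnd3 (0.62) and Kcnc2 (0.62) were higher and Kcnmb4 (−0.68) was lower. Kcnd3 stayed past the test but under the fold limit with library size alone (0.58), after the span correction (0.50) and without siTbk1 replicate 3 (0.55). Kcnn3 and Kcnc2 rest on low counts, with group means between 0.584 and 2.54 CPM, and they did not pass with DESeq2 (adjusted p = 0.164 and 0.116). Kcnc2 was at 0.32 without siTbk1 replicate 3 (edgeR adjusted p = 0.356) and at 0.51 without siScramble replicate 3 (edgeR adjusted p = 0.103), and Kcnn3 did not pass with any of the 4 samples left out (edgeR adjusted p from 0.0745 to 0.117). Of 14 tested sodium, TRP and anion channel genes, 5 rose, 3 fell and 6 did not pass. The sodium channel pore gene Scn1a was called higher from a low level, 2.04 ± 0.352 to 3.14 ± 0.470 CPM (SD, n = 2 each, log2 fold change 0.60, with split reads), and it did not pass with DESeq2 (adjusted p = 0.0801), without siScramble replicate 3 (0.45, edgeR adjusted p = 0.112) or without siTbk1 replicate 3 (0.45, edgeR adjusted p = 0.127).

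Ffar1, also known as GPR40, is the receptor through which long-chain fatty acids amplify insulin secretion. It is listed on chromosome 1 from 89308475 to 89309380 on the − strand, a span of 0.906 kb. Ffar1 was at 21.3 and 23.4 CPM in the control samples and at 20.9 and 16.9 CPM in the siTbk1 samples. The groups did not overlap, but siTbk1 replicate 2 lay close to siScramble replicate 2, and the same-numbered pairs gave log2 ratios of −0.029 and −0.47. In edgeR, Ffar1 had a log2 fold change of −0.24 ± 0.099 (standard error), an unadjusted p of 0.0334 and an adjusted p of 0.0646, with a 95% interval of −26.9% to −1.51% before any adjustment for the number of genes. The gene passed without siTbk1 replicate 2 (−0.42, adjusted p = 0.0020) and without siScramble replicate 2 (−0.305, adjusted p = 0.0082), with the remaining sample of the group assumed to vary like the other group. It also passed with library size alone (−0.285, adjusted p = 0.0376) and with the replicate number as a block (−0.24, adjusted p = 0.0346, all in edgeR). It did not pass after the span correction (−0.13, edgeR adjusted p = 0.349), without siTbk1 replicate 3 (−0.096, edgeR adjusted p = 0.499), without siScramble replicate 3 (−0.17, edgeR adjusted p = 0.184), or with DESeq2 (−0.25, adjusted p = 0.101), so its call depends on these choices.

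Downstream of Ffar1, Gq activates phospholipase C, which releases calcium from stores and activates protein kinase C. Of 16 tested genes for related receptors and this pathway, 9 rose, 3 fell and 4 did not pass, where 24.4% of all tested genes rose and 24.8% fell. Their median log2 fold change was 0.28, beside 0.0071 over all tested genes. The called genes were all higher: Chrm3, the muscarinic receptor for acetylcholine (log2 fold change 0.80), Itpr2, an inositol trisphosphate receptor (0.75, from 0.980 ± 0.149 to 1.64 ± 0.180 CPM, SD, n = 2 each), and Prkca, protein kinase Cα (0.63). Chrm3 was at 6.14 and 5.76 CPM in the control samples and at 9.91 and 10.9 CPM in the siTbk1 samples, and Prkca at 29.0 and 27.3 CPM and at 43.7 and 43.7 CPM. Prkca was under the fold limit after the span correction (0.50). Itpr2 did not pass with DESeq2 (adjusted p = 0.121), without siScramble replicate 2 (0.60, edgeR adjusted p = 0.127) or without siTbk1 replicate 2 (0.62, edgeR adjusted p = 0.124). Named after their values were seen, the Gq α subunit gene Gnaq rose (log2 fold change 0.47) and its close relative Gna11 fell (−0.25), and the phospholipase genes Plcb1 (0.37) and Plcb4 (0.47) rose while Plcb3 fell (−0.36). None of the 16 genes passed a test against a fold change of 1.5, and neither did any called gene of the other lists in this report.

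Calcium is cleared by pumps and exchangers and refilled into stores. Of 16 tested genes of these functions, 5 rose, 5 fell and 6 did not pass, with a median log2 fold change of −0.045. Atp2b1, a calcium pump of the plasma membrane, was called higher, from 133 and 126 CPM in the control samples to 197 and 199 CPM in the siTbk1 samples (log2 fold change 0.61, standard error 0.054, edgeR adjusted p = 6.3e-06). Its counts include split reads, and it was just under the fold limit with library size alone (0.56), after the correction for genomic span (0.50) and without siScramble replicate 3 (0.57).

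Hnf4a, a nuclear receptor that regulates metabolic and secretory genes in liver and β-cells, is listed on chromosome 3 from 159902441 to 159965004 on the + strand. It was at 112 and 106 CPM in the control samples and at 105 and 107 CPM in the siTbk1 samples. The groups overlapped, and edgeR gave a log2 fold change of −0.034 ± 0.056 (standard error) at an adjusted p of 0.643, with a 95% interval of −10.2% to 6.21%. Its sign was positive without siScramble replicate 2 (0.0079). Its count ratio to Foxa2, a forkhead factor of the same network, was 2.04 and 1.77 in the control and 1.7 and 1.75 in the siTbk1 samples, so the groups did not overlap, but the mean log2 difference of −0.14 was smaller than the control SD of 0.142 (n = 2, exact permutation p = 0.333, adjusted p = 0.333 over the 4 ratios). The difference was −0.041 without siScramble replicate 2 and −0.24 without siScramble replicate 3.

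Of 13 tested HNF and related regulators, 2 rose, 4 fell and 7 did not pass, with a median log2 fold change of −0.022. Ppargc1a, a coactivator of mitochondrial genes that also binds Hnf4a, was called higher, from 5.996 and 5.65 to 10.2 and 9.75 CPM (log2 fold change 0.77, edgeR adjusted p = 0.00011). Hnf4g, the paralog of Hnf4a, was called higher from a low level (log2 fold change 0.66, 2.73 ± 0.565 to 4.30 ± 0.0325 CPM, SD, n = 2 each). After the span correction Hnf4g was under the fold limit (0.55), and without siScramble replicate 2 it was at 0.46 and did not pass (edgeR adjusted p = 0.0527). Onecut2, a cut-homeodomain factor, was called lower (log2 fold change −0.998, 2.87 ± 0.648 to 1.41 ± 0.416 CPM, SD, n = 2 each). Pcbd1, named after its value was seen, encodes a pterin dehydratase that also acts as a transcriptional cofactor, and fell from 247 ± 12.3 to 193 ± 5.19 CPM (SD, n = 2 each, log2 fold change −0.35).

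**Figure D5:**
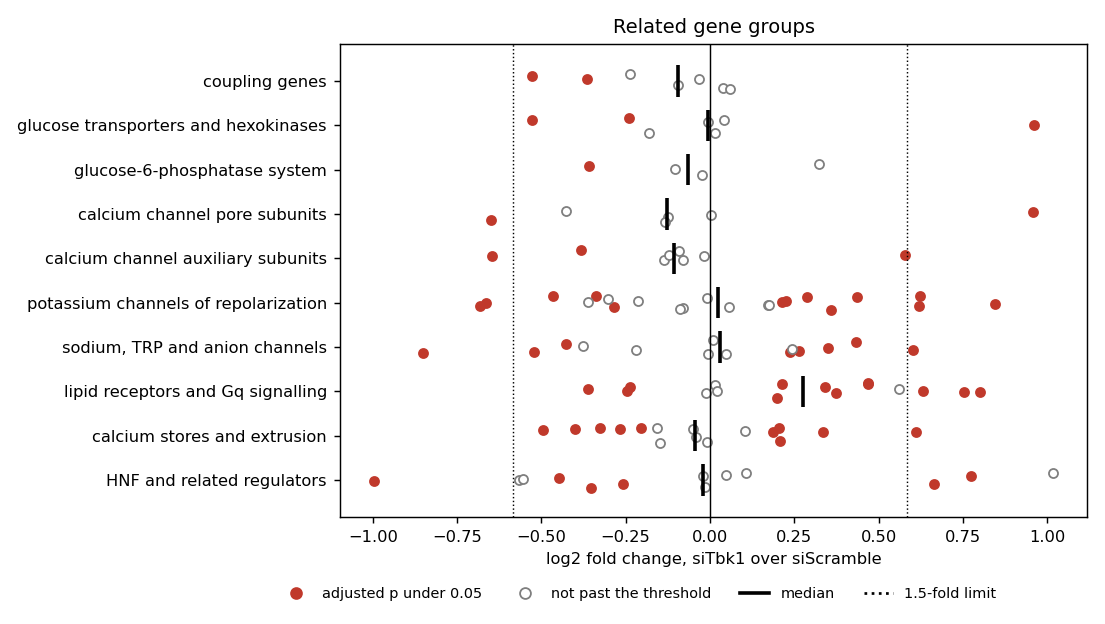
Log2 fold change in siTbk1-treated over control cells (horizontal axis) of the 7 measured coupling genes and of the tested genes of 9 related groups; each point is a gene, filled where it passed the test, and the heavy bar is the group's median. The genes for lipid receptors and Gq signalling have a median of 0.28, and the medians of the other groups lie between −0.13 and 0.028.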

How the data were processed

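Polyadenylated RNA of 4 samples was sequenced as stranded libraries. The authors deposited estimated counts per gene, not scaled between samples, of which between 26.2% and 27.0% per sample are not whole numbers. Genes with any count over 0.01 away from a whole number are described as having split reads. The submitters' processing notes name STAR 2.6.1d, Partek and the rn6 build, with which the listed positions are given; the annotation is not given in the sources used here. Counts were rounded and filtered with filterByExpr of edgeR 4.0.16 (minimum count 10), which left 13953 genes and removed 1219. Libraries were scaled with TMM factors, and CPM values include these factors. glmQLFit and glmQLFTest then compared siTbk1 with siScramble, with treatment as the only term. Intervals (95%) use the standard error and the degrees of freedom of that fit. Alternatives used R 4.3.3, limma 3.58.1 and DESeq2 1.42.0; figures used matplotlib 3.10.9. The tests were checked on simulated data, with changes larger than those of the members and placed in genes with high counts. The check does not cover smaller changes or genes with low counts. The genes and lists were chosen with earlier results of these data known. The genes named are the members, Tbk1, the called genes of each list (or else its gene of highest mean CPM), and others that the text marks as chosen once their values were known. Some called genes of the lists are not reported here. CPM values are not divided by transcript length, so they do not rank genes by abundance. The alternatives were a replicate block, DESeq2, limma-voom, library size alone, upper quartile scaling, no filter on low counts, at least 10 counts in every sample, a loess correction for genomic span (with and without the block), a test against a fold change of 1.5 (glmTreat), and each sample left out. Count ratios within a library were compared by an exact permutation test.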

Additional observations from a re-analysis of the deposited data

How the results depend on the processing

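Slc2a2 and Cacna1c passed the test under the 9 alternatives that tested against no change. Both kept their direction there and with each sample left out. Testing against a fold change of 1.5 (glmTreat) left 163 genes higher and 101 lower of 671 and 862 called. None of the 7 members and none of the called genes of the lists were among them. With the genomic span correction, alone and with the replicate block, 1 member was called lower (Cacna1c, −0.646 in both), Abcc8 passed at −0.195 and −0.197, and Cacna1d reversed to −0.0646 and −0.0649. Library size alone reversed Kcnj11 to −0.0098 and let Ffar1 pass at −0.285. With the replicate block Ffar1 passed at −0.244, Slc2a2 was at −0.365 and no other member changed its call. Same-numbered samples deviated from their group means with a Pearson correlation of 0.0041 across all tested genes (−0.386 over those with a mean log2 CPM of at least 4), and the labels give no shared origin, so the numbers were not treated as pairs; whether they mark a shared origin cannot be settled with 2 samples per group. With the replicate block 699 genes were called higher and 898 lower. With a sample left out, the log2 fold change lay between −0.193 and −0.0124 for Abcc8, −0.0453 and 0.105 for Kcnj11, −0.418 and −0.0962 for Ffar1, and −0.0743 and 0.0079 for Hnf4a; Kcnj11 reversed at −0.026 and −0.0453 and Hnf4a at 0.0079. Between 2 and 4 members then fell, and between 574 and 1159 of all genes were called lower (574 without siScramble replicate 3). The causes of these shifts were not tested. With 2 samples per group, the intervals of the members that did not pass leave room for small changes in either direction for Abcc8, Kcnj11, Cacna1d and Hnf4a. Over all alternatives, the called genes of the lists and Tbk1 lost their call 65 times, kept it otherwise and never reversed. Counts over the gene lists, without those of calcium channel subunits, stayed within 1.5 times 473 times and moved further 67 times. Counts over the calcium channel lists moved as well. After the genomic span correction, the pore subunits that fell went from 1 to 2 and the auxiliary subunits that fell from 2 to 4. The ratio of G6pc2 to G6pc3 was not run.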
